A study of Mus musculus with 4 samples.

Results

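A set of 10 genes of blood coagulation and plasminogen activation was followed through the cells of mouse ovarian tumor ascites: the initiating factors F3 (tissue factor) and F7, the common-pathway factors F10 and F5, the fibrin crosslinking subunit F13a1, the anticoagulants Tfpi and Thbd, the plasminogen activator Plau and its receptor Plaur, and the adhesion receptor Selp (P-selectin). They were taken by symbol from the gene list of the count matrices, and all 10 were found among its 32285 genes. The cells came from female FVB mice that received Br-Luc mouse ovarian cancer cells (genotype p53-/-; brca1-/-; myc; Akt-myr) by intraperitoneal injection, and ascites was collected 6 weeks after tumor cell injection. The first group received the control siRNA, given in the labels as siCont and in the methods as siCont-LNA, and the second siFXR1-LNA, an LNA-modified siRNA against Fxr1, both carried by jetPEI and injected intraperitoneally from 7 days after inoculation. Each group had 2 droplet single-cell RNA-seq libraries, and the ascites of 3 mice was pooled for each, so a library is a pool and the p-values below measure the spread between pools.

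Blood clotting starts when F3, a membrane protein of cells outside the vessel, binds F7 from plasma. The complex activates F10, which with its cofactor F5 converts prothrombin to thrombin, and thrombin makes fibrin that F13a1 then crosslinks. Tfpi blocks the F3 and F7 complex, Thbd turns thrombin towards activation of protein C, and Plau held on its receptor Plaur makes plasmin, which dissolves fibrin and cleaves matrix. F7, F10 and F5 are best known as products of the liver, but macrophages make several clotting factors, and the resident macrophages of the mouse peritoneum are known to express F5. Selp is stored in platelets and endothelial cells and binds leukocytes through Selplg.

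In the genome, 4 of the genes lie in pairs. Selp (GRCm38, chr1:164115264-164150026) ends 1811 bases before F5 (chr1:164151838-164220277), and F7 (chr8:13026034-13035809) ends 1498 bases before F10 (chr8:13037308-13056676), all on the plus strand. The others stand apart from each other: F3 at chr3:121723537-121735048 and Plau at chr14:20836660-20843385 and Plaur at chr7:24462484-24475968 on the plus strand, and F13a1 at chr13:36867178-37050244, Thbd at chr2:148404466-148408188 and Tfpi at chr2:84432855-84476775 on the minus strand. The start regions of the 2 neighbouring pairs are shown because the members of a pair are compared across cell types below. Each is 300 bases of the plus strand of GRCm38.p6 from RefSeq, 250 before to 50 after the annotated start, written 5′ to 3′, and capitals mark a match to the letters searched.
Selp, chr1:164115014-164115313: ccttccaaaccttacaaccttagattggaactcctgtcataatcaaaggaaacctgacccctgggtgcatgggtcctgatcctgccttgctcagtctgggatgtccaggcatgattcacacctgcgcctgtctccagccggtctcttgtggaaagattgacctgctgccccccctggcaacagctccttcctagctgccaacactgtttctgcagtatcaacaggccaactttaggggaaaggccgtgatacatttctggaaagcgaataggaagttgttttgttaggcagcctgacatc
F5, chr1:164151585-164151884: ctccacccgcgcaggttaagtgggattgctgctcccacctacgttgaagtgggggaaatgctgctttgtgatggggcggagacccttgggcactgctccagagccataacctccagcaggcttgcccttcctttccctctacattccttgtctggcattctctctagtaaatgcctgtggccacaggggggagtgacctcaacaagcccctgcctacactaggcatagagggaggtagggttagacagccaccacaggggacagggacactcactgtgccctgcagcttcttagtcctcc
F7, chr8:13025784-13026083: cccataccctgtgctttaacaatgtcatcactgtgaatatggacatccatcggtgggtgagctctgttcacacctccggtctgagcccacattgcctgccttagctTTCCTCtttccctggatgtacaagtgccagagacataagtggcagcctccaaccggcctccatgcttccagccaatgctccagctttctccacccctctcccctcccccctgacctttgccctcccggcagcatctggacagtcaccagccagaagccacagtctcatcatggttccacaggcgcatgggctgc
F10, chr8:13037058-13037357: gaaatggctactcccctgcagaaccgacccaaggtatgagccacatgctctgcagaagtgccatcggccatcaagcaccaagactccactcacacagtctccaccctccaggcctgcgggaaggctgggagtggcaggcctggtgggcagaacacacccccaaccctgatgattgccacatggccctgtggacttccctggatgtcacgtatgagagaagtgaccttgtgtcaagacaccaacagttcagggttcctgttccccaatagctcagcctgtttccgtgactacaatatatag
The letters searched on both strands were GATAA, the core bound by GATA factors such as Gata6 of peritoneal macrophages, and GAGGAA, a core bound by the myeloid factor PU.1. The words do not overlap each other. Of these 4 windows only that of F7 held a match, to GAGGAA read on the opposite strand. Windows were found for 8 of the 10 genes, and Thbd and Plau had none. GATAA was present in windows of F13a1 and Tfpi, and GAGGAA in windows of F7, F13a1, Tfpi and Plaur. F13a1 and Tfpi each had more than a single window, so these matches are given by gene, while the shares that follow are per window. Over all 32851 windows of this length, 25.4% held GATAA and 28.3% held GAGGAA. A match describes the letters in the window and nothing more.

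Of 133849 barcodes, 132644 were kept as cells, far more than the study states. Its methods left out 1 replicate labelled siFXR1-LNA without saying which, and all 4 libraries are used here. The libraries held 78179300 to 113607000 UMIs (unique molecular identifiers, counts of captured RNA molecules, here to 6 digits) and had median depths of 1349 to 2653 UMIs per kept cell. Hemoglobin genes took 29.5% and 41.1% of UMIs in siCont and 10.0% and 9.11% in the libraries labelled siFXR1-LNA. Of the kept barcode sequences, 8032 occurred in 2 libraries, 204 in 3 and 2 in all 4. The gene targeted by the siRNA was not lower in the libraries labelled for it: over all cells Fxr1 stood at 55.8 and 33.9 CPM (counts per 1000000) in siCont and at 104 and 71.8 in the libraries labelled siFXR1-LNA. In macrophages it stood at 65.4 and 61.0 against 73.4 and 68.8 (log2 fold change 0.36, SE 0.11, edgeR adjusted p = 0.0844). In mesothelial or epithelial cells it stood at 109 and 125 against 140 and 139 (0.28, SE 0.23, edgeR adjusted p = 0.508). The paper reports lower Fxr1 in epithelial cells of the siFXR1-LNA group, by a Wilcoxon test.

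Clusters were named from marker genes as macrophage-like, granulocyte-like, dendritic cell-like (DC), B cell-like, T cell-like, mesothelial or epithelial cell-like, mast cell or basophil-like, erythroid-like and platelet-like, and are called by these names without the suffix from here on. The largest cluster of the libraries labelled siFXR1-LNA, led by Sprr1a, Ccn2, Tfrc and Ndufa4l2, passed the markers of no type and is called cluster 0. It held 41030 and 5439 cells there and 63 and 52 in siCont. Macrophages numbered 4351 and 2124 in siCont and 3933 and 3662 in the libraries labelled siFXR1-LNA, granulocytes 442 and 904 against 5476 and 4800, and the mesothelial or epithelial cells 843 and 122 against 1478 and 417. Macrophage subclusters were named likewise. The peritoneal resident-type subcluster passed 3 of 6 markers (Icam2, Alox15 and Prg4), so its name rests on part of the list, and it also had raised S100a8, S100a9 and Retnlg of the granulocyte list. Levels below are in CPM, the UMIs of a gene per 1000000 UMIs of the cell type in a library, and 4 values in a row stand for siCont 1, siCont 2, and libraries 1 and 2 labelled siFXR1-LNA. They are compared between cell types within a gene, not between genes. Since the types were made from the same cells, the levels across types are a description without a test.

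**Figure D1:**
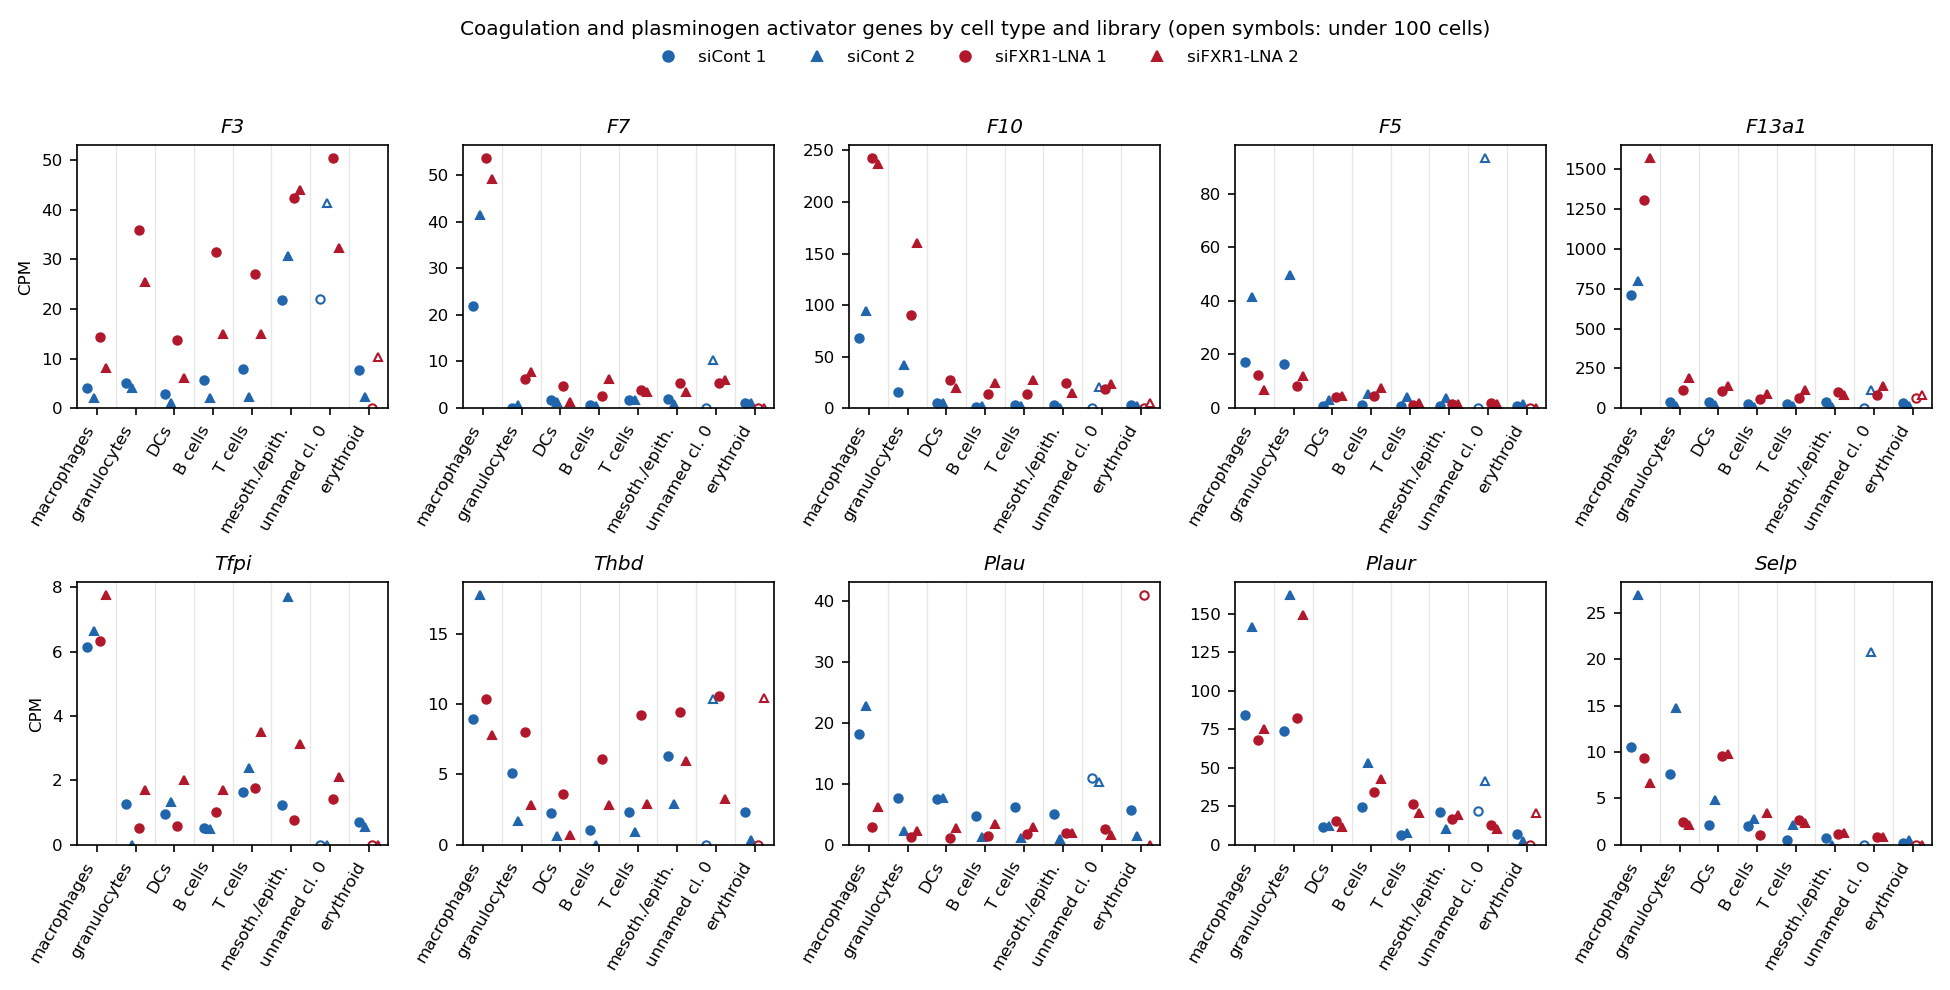
Each panel shows 1 gene as CPM (y axis) in 8 cell types (x axis), with a point for each of the 4 libraries and open symbols for types with under 100 cells in a library. F13a1 in macrophages, at 708 to 1572, lies above every other type shown, while F3 reaches its level in mesothelial or epithelial cells and in cluster 0.

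F3, the receptor that starts clotting, was highest in mesothelial or epithelial cells and in cluster 0, which passed the markers of no type. In mesothelial or epithelial cells it stood at 21.9 and 30.7 CPM in siCont and 42.4 and 44.0 in the libraries labelled siFXR1-LNA. In cluster 0 the values were 22.04 and 41.5 against 50.5 and 32.3. The range over libraries of these 2 clusters overlapped, and that of granulocytes, next in the order at 5.11 and 3.99 against 36.0 and 25.4, overlapped both. Counted per cell, the mesothelial or epithelial cells carried 14.8, 26.2, 25.6 and 33.6 F3 UMIs per 100 cells, above every leukocyte type in the same library. B cells, which are not a known source of F3, carried 1.52, 0.636, 7.07 and 4.01 per 100 cells, T cells 1.73, 0.648, 5.75 and 3.92, and macrophages 2.16, 1.69, 8.26 and 7.21. Median depths were 5890, 8526, 5244 and 6683 UMIs per mesothelial or epithelial cell, 4921, 7927, 5209 and 8608 per macrophage and 2390, 2721, 2023 and 2289 per B cell. The mesothelial or epithelial cells were thus also deeper than B cells. Macrophages, above both lymphocyte types per cell in each library, were also deeper. The part of free RNA in the F3 UMIs of leukocytes was not tested. After each cell was thinned to 1000 UMIs, 1.93%, 3.33%, 3.67% and 5.30% of mesothelial or epithelial cells had an F3 UMI, against 0.741%, 0.207%, 3.70% and 1.26% of B cells. At equal depth they were thus not above B cells in library 1 labelled siFXR1-LNA.

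F7, the plasma partner of F3, was found mainly in macrophages, at 21.8 and 41.5 CPM in siCont and 53.7 and 49.2 in the libraries labelled siFXR1-LNA. The other types with 100 or more cells in a library were at most at 7.65: granulocytes stood at 0, 0.569, 6.28 and 7.65, where the 0 allows up to 3.83, DCs at 1.65, 1.20, 4.80 and 1.35, and B cells at 0.731, 0.364, 2.53 and 6.28. Within macrophages the resident-type subcluster was high in F7 in all 4 libraries, with 57.6, 93.997, 93.3 and 58.3. Patrolling monocytes, blood-derived cells found in siCont apart from 1 cell in library 2 labelled siFXR1-LNA, had 6.00 and 3.22. The subcluster found in the libraries labelled siFXR1-LNA apart from 1 cell in siCont 2, led by Mt2, Saa3 and Cxcl3 and called subcluster 0, had 48.5 and 50.8. The mean F7 level was thus lowest in the patrolling monocytes, still above B and T cells of the same libraries, and highest in the resident-type cells. After thinning, 1.80%, 3.12%, 4.98% and 4.38% of macrophages had an F7 UMI, against 0.114%, 0.0829%, 0.231% and 0.631% of B cells.

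F10, the zymogen that the F3 and F7 complex activates, was also highest in macrophages but reached further. Its macrophage levels were 68.3 and 94.2 CPM in siCont and 243 and 237 in the libraries labelled siFXR1-LNA. Granulocytes followed with 15.3 and 42.1 against 90.4 and 161, a range that overlapped that of macrophages. DCs had 5.31 and 5.08 against 27.6 and 19.8. B cells stood at 1.36, 2.43, 13.7 and 23.99 and T cells at 3.27, 2.09, 13.6 and 27.2, so in each of these 5 types both libraries labelled siFXR1-LNA lay above both of siCont for F10. Per 100 cells, macrophages carried 35.9, 76.2, 140.4 and 213 F10 UMIs, granulocytes 2.71, 8.19, 18.9 and 39.0, and B cells 0.358, 0.795, 3.08 and 6.47. Granulocytes thus stood several times above B cells in each library.

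F10 in granulocytes did not come in the proportions found in macrophages taken as a whole. F13a1 was higher in macrophages as a whole than in the other leukocytes described below, though not absent from them. For each 100 UMIs of F13a1, macrophages had 9.65, 11.8, 18.5 and 15.1 UMIs of F10 and granulocytes 37.5, 274, 79.1 and 83.7. T cells had 12.1, 19.2, 20.9 and 24.3, between macrophages and granulocytes in every library. The siCont granulocyte values rest on 12 and 74 UMIs of F10 and 32 and 27 of F13a1. Single macrophage subclusters differed widely. Patrolling monocytes had 95.4 and 109 in siCont, resident-type cells 99.2, 11.7, 54.3 and 11.3, and cycling macrophages 4.64, 6.28, 14.9 and 15.2. The part of macrophage RNA in the F10 of granulocytes was not tested. The ratio of F10 to F7 UMIs was likewise lower in whole macrophages than in granulocytes. It was 3.13, 2.27, 4.52 and 4.82 in macrophages, against 14.4 and 21.0 in granulocytes of the 2 libraries labelled siFXR1-LNA. After thinning, 1.59%, 2.84%, 7.72% and 13.3% of granulocytes had an F10 UMI, against 0.199%, 0.373%, 1.62% and 2.05% of B cells.

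By the mean over the libraries in which each occurred, resident-type cells and subcluster 0 came first and patrolling monocytes last of the macrophage subclusters for both F10 and its neighbour F7. These means cover unlike libraries. Within siCont 1, F10 in cycling macrophages (30.0 CPM) lay below that in patrolling monocytes (48.6). Within library 2 labelled siFXR1-LNA, F10 in resident-type cells (173) lay below that in subcluster 6 (221). The patrolling monocytes had more F10 for their F7. Resident-type cells had 174 and 168 CPM of F10 in siCont and 349 and 173 in the libraries labelled siFXR1-LNA. Patrolling monocytes kept 48.6 and 46.4 of F10, with 8.11 and 14.4 UMIs of F10 for each UMI of F7, against 3.03, 1.79, 3.74 and 2.97 in resident-type cells. Subcluster 0 had 253 and 284. Within single macrophages thinned to 1000 UMIs, F10 was found in 14.3%, 20%, 21.5% and 18.8% of the cells with F7 and in 5.33%, 6.94%, 18.8% and 19.3% of those without, so the cells with F7 had F10 more often in siCont and about as often in the libraries labelled siFXR1-LNA. Hepatocyte markers, a list of 4, summed to 1.26 CPM at most in any type, so the usual source of F7 and F10 was at or near 0.

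F5, the cofactor of F10, and Selp shared a pattern unlike that of the other genes: both were concentrated in the resident-type macrophages. F5 stood there at 300.04 and 97.0 CPM in siCont and at 82.3 and 22.6 in the libraries labelled siFXR1-LNA. Selp stood at 222 and 66.6 against 53.5 and 21.6. Both genes were highest in siCont 1 and lowest in library 2 labelled siFXR1-LNA. In the other macrophage subclusters with 10 or more cells F5 was at most 25.9 and Selp at most 20.1 in any library, and the patrolling monocytes had 1.499 and 1.35 of F5 and 0.214 and 0.847 of Selp. The 2 genes kept 1.35, 1.46, 1.54 and 1.04 UMIs of F5 for each UMI of Selp in resident-type cells. Both were left out of the genes used for clustering, yet they were among the leading genes of this subcluster, so its level of them is a description of the cluster.

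The resident-type cells with a F5 UMI were also richer in other genes of that class. Gata6, the transcription factor of large peritoneal macrophages, was found in 40.0%, 27.5%, 30.7% and 23.1% of the cells with F5 and in 16.1%, 6.48%, 15.4% and 10.2% of those without. Prg4 was found in 97.3%, 87.0%, 88.6% and 37.2% against 50.0%, 31.2%, 42.9% and 11.1%. Selp itself was found in 64.0%, 61.5%, 36.8% and 30.6% of the cells with F5 and in 26.8%, 11.3%, 13.9% and 7.48% of the others. The cells with F5 had median depths of 4818, 9519, 5706 and 8576 UMIs and the others 4907, 8688, 5047 and 8086, so depth was higher with F5 in 3 of 4 libraries. Thinned to 1000 UMIs, Selp was present in 33.3% and 27.9% of siCont cells with F5 against 13.2% and 4.75% without, and in the libraries labelled siFXR1-LNA in 3.23% and 3.70%, 1 cell in each, against 5.39% and 1.96%.

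Platelets carry F5 and Selp protein, and the platelet cluster gave a second, different source. It held 167 cells in siCont 2 and 6 to 10 in each other library, and in siCont 2 it had 404 CPM of F5 from 109 UMIs and only 4 UMIs of Selp, which is 27.25 UMIs of F5 for each UMI of Selp. The 52 cells of cluster 0 in siCont 2 had 93.3 of F5, from 9 UMIs. The platelet gene Ppbp was found in 0%, 1.5%, 3.51% and 2.48% of the resident-type cells with F5 and in 1.79%, 2.43%, 2.62% and 2.45% of those without, and Gp9 in 0%, 1.5%, 3.51% and 0.826% against 0%, 0.405%, 0.524% and 0.645%. In granulocytes F5 stood at 16.6 and 49.5 against 8.38 and 12.1 and Selp at 7.66 and 14.8 against 2.44 and 2.15, and there Gp9 (2.55, 8.54, 1.75 and 1.55) and Ppbp (17.9, 21.6, 9.42 and 9.54) were also higher in siCont. The part of platelets bound to granulocytes in these values was not tested. The 5 markers of endothelial cells, another source of Selp, summed to 6.15 to 30.5 CPM in macrophages and to 107 to 174 in B cells, where Selp was 1.98, 2.79, 1.01 and 3.43. Of this list only Pecam1 was raised in B cells, where 1 to 4 of the 5 had a UMI in a library. The part of endothelial RNA in Selp was not tested.

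**Figure D2:**
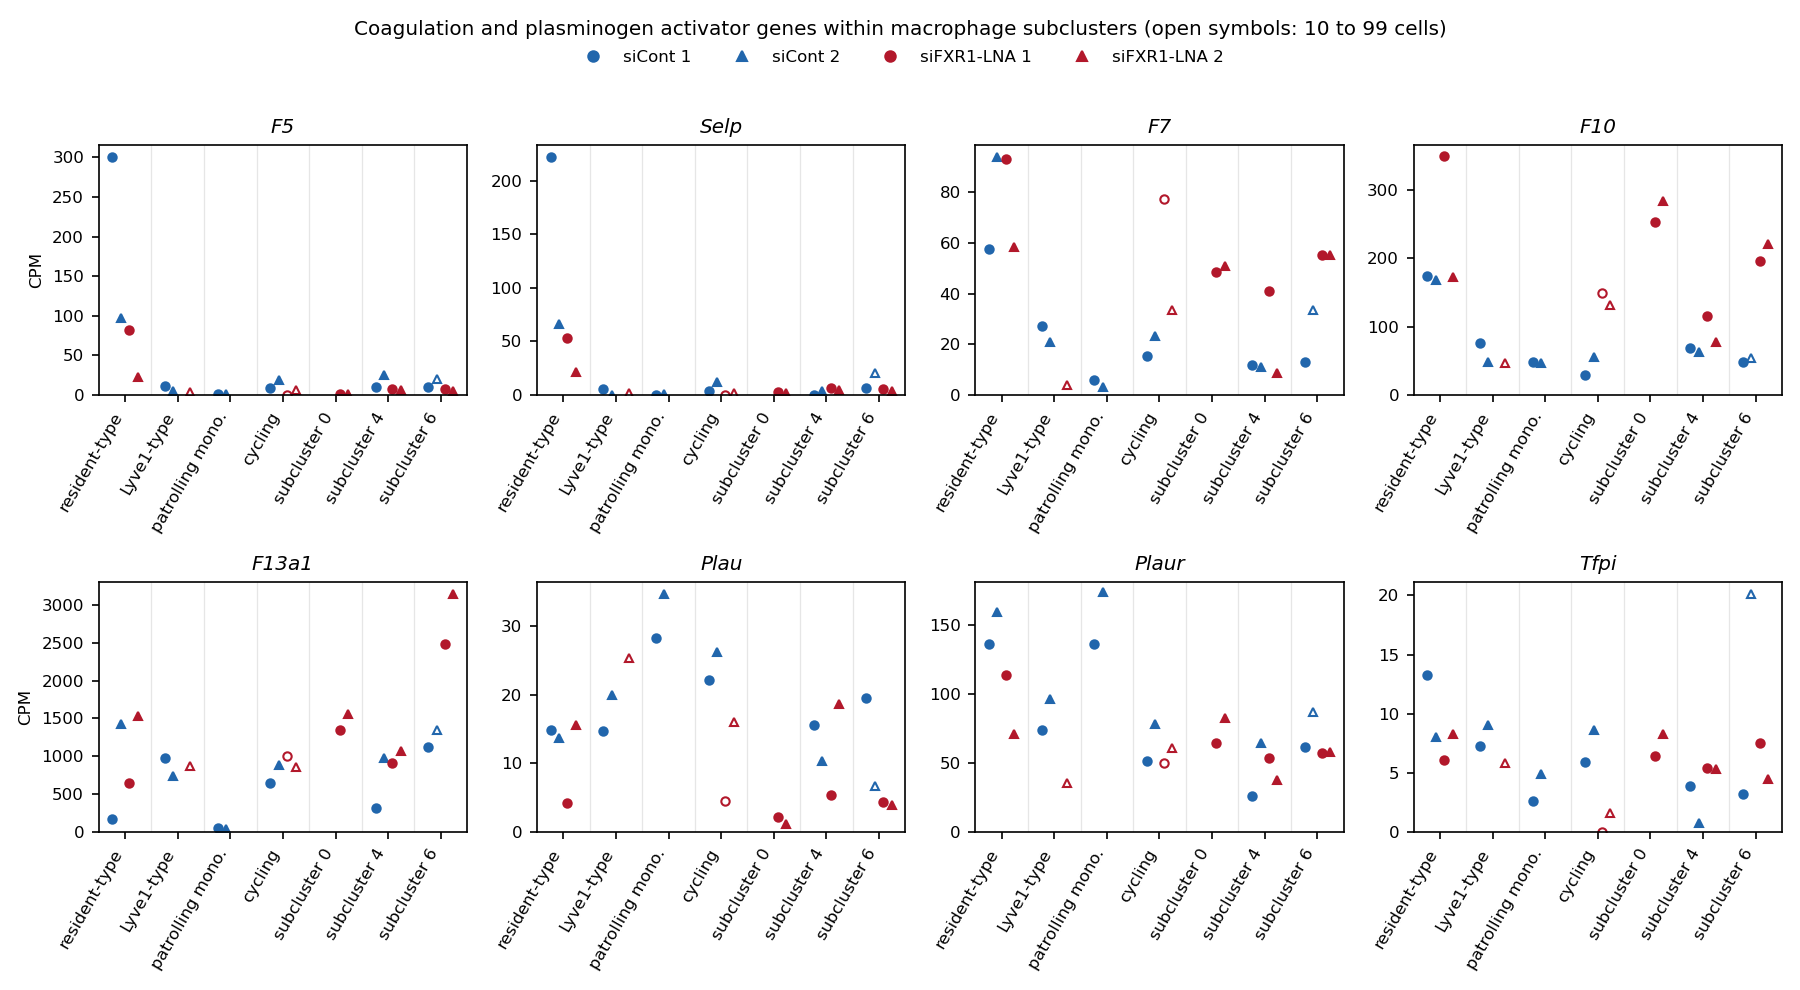
CPM (y axis) of 8 of the genes in the macrophage subclusters (x axis), 1 point per library, with open symbols for 10 to 99 cells. F5 and Selp stand high in the resident-type subcluster (F5 at 22.6 to 300.04) and low elsewhere, while F13a1 is lowest in patrolling monocytes (51.0 and 42.7) and ranges from 176 to 1527 in resident-type cells.

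F13a1, which crosslinks fibrin and is known from macrophages and platelets, set macrophages apart from the other types. It stood at 708 and 801 CPM in siCont macrophages and at 1309.6 and 1572 in the libraries labelled siFXR1-LNA, and the range did not overlap that of any other type with 10 or more cells in every library. DCs had 36.7, 21.2, 109 and 136, granulocytes 40.8, 15.4, 114 and 192, B cells 23.8, 8.99, 57.8 and 85.7, and T cells 27.0, 10.9, 64.8 and 112. In each library B and T cells lay near each other, lower in siCont 2 than in siCont 1 and highest in the libraries labelled siFXR1-LNA. Per 100 cells, B cells carried 6.28, 2.94, 12.999 and 23.1 UMIs of F13a1 and T cells 5.99, 3.15, 13.7 and 29.4, against 373, 648, 757 and 1409 in macrophages. Granulocytes carried 7.24, 2.99, 23.9 and 46.5, above B and T cells in the libraries labelled siFXR1-LNA and level with them in siCont. After thinning, 31.7%, 32.8%, 56.4% and 65.5% of macrophages had an F13a1 UMI, against 2.51%, 0.911%, 4.62% and 9.31% of B cells.

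Among macrophage subclusters F13a1 was not a resident-type gene in every library. Resident-type cells had 176 and 1433 CPM in siCont and 642 and 1527 in the libraries labelled siFXR1-LNA, lower in replicate 1 of each group. Lyve1-type cells, a tissue macrophage class, had 977 and 744 in siCont, cycling macrophages 646, 885, 1008 and 863, and subcluster 0 had 1354 and 1554. The highest mean level was in subcluster 6, led by Junos and Nos2, at 1122 and 1347 in siCont and 2486 and 3148 in the libraries labelled siFXR1-LNA. Patrolling monocytes were at 51.0 and 42.7, below the other subclusters of their libraries.

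**Figure D3:**
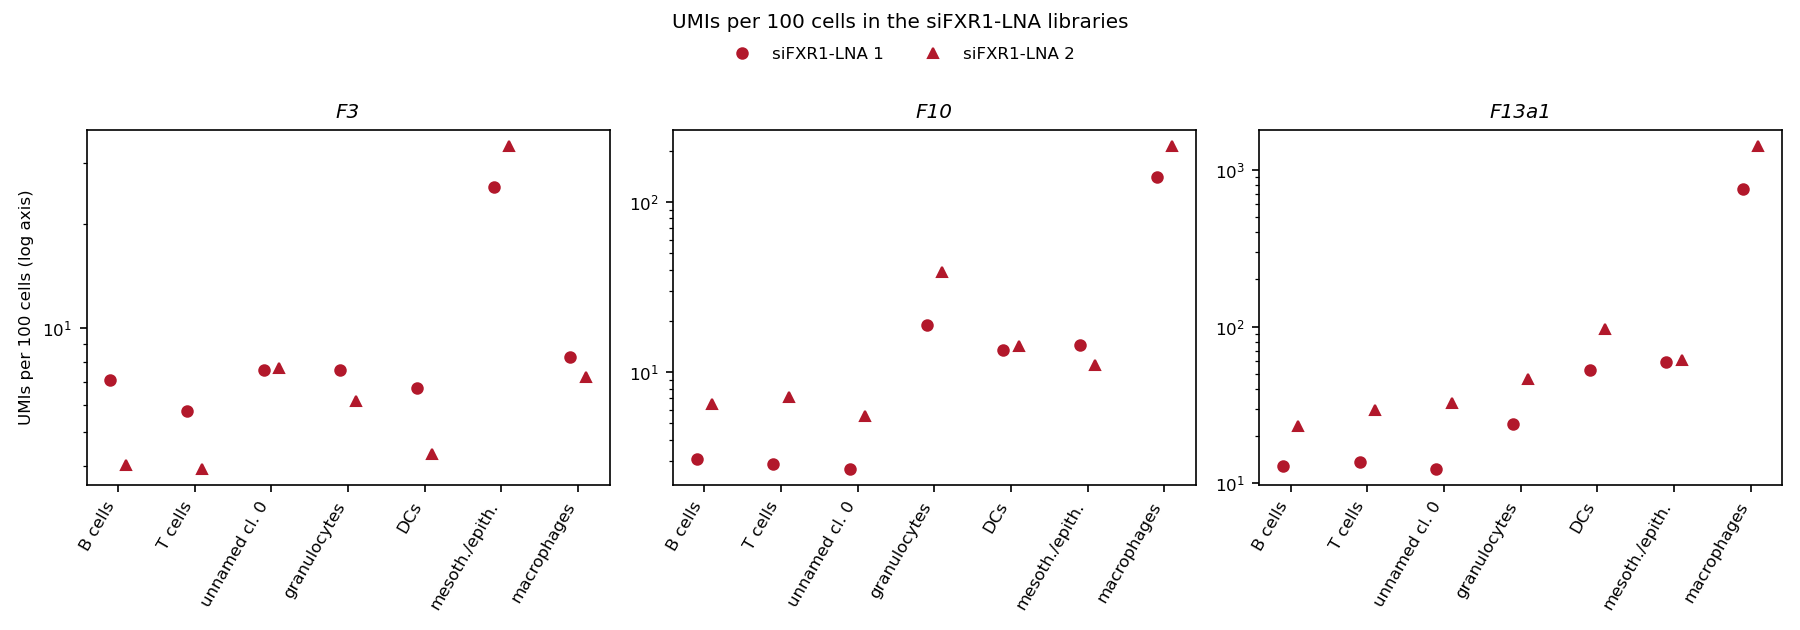
UMIs per 100 cells (y axis, log scale) of F3, F10 and F13a1 in each cell type (x axis) in the 2 libraries labelled siFXR1-LNA, 1 point per library. For F13a1 macrophages (757 and 1409) stand far above the other types, for F10 granulocytes (18.9 and 39.0) stand between macrophages and lymphocytes, and for F3 mesothelial or epithelial cells (25.6 and 33.6) stand above the leukocytes. The counts are not corrected for depth, and after thinning the share of cells with F3 was not above that of B cells in library 1.

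The 2 anticoagulants were sparse. Tfpi, the inhibitor of the F3 and F7 complex, was even across libraries in macrophages, at 6.16, 6.64, 6.33 and 7.77 CPM, and was 1.23, 7.69, 0.785 and 3.14 in mesothelial or epithelial cells. Thbd, the thrombin receptor that starts the protein C pathway, stood at 8.95, 17.8, 10.4 and 7.80 in macrophages and at 6.31, 2.88, 9.42 and 5.97 in mesothelial or epithelial cells. For both genes macrophages were first in the order of types and their range overlapped the next type's. Within macrophages Thbd was 29.2 and 33.5 in siCont and 12.9 and 7.72 in the libraries labelled siFXR1-LNA in subcluster 6, and 8.87, 25.9, 15.9 and 10.1 in resident-type cells.

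Plau, the urokinase-type plasminogen activator, was highest among cell types in siCont macrophages, apart from mast cells with 13 UMIs in all and erythroid cells. The highest erythroid value, 41.0 CPM, came from library 1 labelled siFXR1-LNA with 21 erythroid cells. It stood at 18.3 and 22.7 CPM in siCont macrophages and at 2.95 and 6.21 in the libraries labelled siFXR1-LNA. Patrolling monocytes had the most, 28.3 and 34.7. Lyve1-type cells had 14.7 and 19.95 in siCont and 25.4 in library 2 labelled siFXR1-LNA, from 64 cells. Subcluster 0 had 2.14 and 1.20. Where a subcluster occurred in all 4 libraries the groups were less clearly separated: cycling macrophages had 22.1 and 26.3 against 4.54 and 16.0, and resident-type cells had 14.8 and 13.7 against 4.17 and 15.6. Subcluster 4 had both its lowest value (5.40) and its highest (18.7) in the libraries labelled siFXR1-LNA. By mean, macrophages (12.5) were followed by erythroid cells (12.1) and cluster 0 (6.38), and then by DCs at 7.56 and 7.62 against 1.20 and 2.69.

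Plaur, the receptor that holds Plau at the cell surface, was led by granulocytes, at 74.0 and 162 CPM in siCont and 82.2 and 149 in the libraries labelled siFXR1-LNA, and by macrophages, at 84.2 and 141 against 68.3 and 75.1. The ranges of these 2 types overlapped, and that of macrophages did not overlap the next type, B cells, at 24.5, 52.9, 34.5 and 42.8. T cells had 6.17, 7.60, 26.3 and 20.8 and DCs 11.7, 12.3, 15.6 and 11.8. The receptor therefore did not have the distribution of its ligand: it was present in granulocytes, where Plau was 7.66, 2.28, 1.22 and 2.23, and in subcluster 0, where it stood at 64.6 and 82.6. After thinning, 5.03%, 10.7%, 6.64% and 11.1% of granulocytes and 8.06%, 11.5%, 6.39% and 7.23% of macrophages had a Plaur UMI, against 0.679%, 0.853%, 2.26% and 1.81% of T cells.

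The groups were compared on the UMI counts summed per library and type with the quasi-likelihood test of edgeR, 2 libraries against 2, adjusted over all genes tested in the type. In macrophages 4 of the 10 genes passed at an adjusted p of 0.05, in a fit where 19% of 14270 genes did. F10 was higher in the libraries labelled siFXR1-LNA by 1.75 on the log2 scale (SE 0.21, edgeR adjusted p = 0.0108), F13a1 by 1.12 (SE 0.20, edgeR adjusted p = 0.0234) and F3 by 2.03 (SE 0.44, edgeR adjusted p = 0.0365), while Plau was lower, at -1.96 (SE 0.38, edgeR adjusted p = 0.0275). F7 (0.89, SE 0.33, edgeR adjusted p = 0.123), F5 (-1.43, SE 0.52, edgeR adjusted p = 0.119), Selp (-1.05), Plaur (-0.47), Thbd (-0.37) and Tfpi (0.33) did not pass. The median over the 10 genes was -0.02, beside 0.01 over all genes tested. Without library 1 labelled siFXR1-LNA no gene of the 10 passed and without library 2 only 2 did, F10 and Plau. Without siCont 1 there were 7 and without siCont 2 there were 3. In these fits the lone library of a group is taken to vary like the other group.

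The makeup of the macrophages differed between the libraries as well, and its part in the result was not tested. Lyve1-type cells were 56.6% and 6.97% of macrophages in siCont and 0.0509% and 1.75% in the libraries labelled siFXR1-LNA, patrolling monocytes 23.7% and 33.5% against 0% and 0.0273%, and subcluster 0 was 0% and 0.0471% against 53.4% and 51.9% (exact permutation p = 0.333 for each, the smallest that 2 against 2 libraries can give). Resident-type cells were 3.01% and 32.7% against 12.6% and 24.5%. When the sums were limited to the subclusters found in every library, an alternative chosen after seeing the data, none of the 10 genes passed (4 had an unadjusted p under 0.05), and none of the 12736 genes tested did with edgeR (2562 at an unadjusted p under 0.05): F3 differed by 2.13 (edgeR adjusted p = 0.120), F10 by 0.97 (edgeR adjusted p = 0.229), F13a1 by 0.67 (edgeR adjusted p = 0.456) and Plau by -0.87 (edgeR adjusted p = 0.402). Subcluster 6, left unnamed, also had raised markers of granulocytes (S100a8, S100a9, Csf3r, Retnlg) and epithelial cells (Krt19, Krt18, Krt8), and without it, again chosen after seeing the data, the macrophage sums still gave 4 genes. Fitted on its own, F10 was higher there, by 1.99 (SE 0.29, edgeR adjusted p = 0.00689, where 8.61% of genes passed), from 48.7 and 53.6 in siCont to 196 and 221 in the libraries labelled siFXR1-LNA. F13a1 did not pass in it (1.14, edgeR adjusted p = 0.0644). In cycling macrophages F10 alone of 6 genes tested was higher, by 1.84 (SE 0.31, edgeR adjusted p = 0.0233, where 1.86% of genes passed), from 30.0 and 55.6 to 149.9 and 132 with 25 and 53 cells. F10 ranged there from 1.46 to 2.34 when 1 library at a time was left out, and whether it passed depended on the library. In the unnamed subcluster 4, led by Ear2 and Ccr2, none of the 10 genes passed, where 0.0106% of genes did.

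In the resident-type macrophages none of the 10 genes passed, in a fit where 0.0355% of 11264 genes did. The largest differences were those of F5 (-1.94, SE 0.76, unadjusted p = 0.0408, edgeR adjusted p = 0.704) and Selp (-1.94, SE 0.69, unadjusted p = 0.0278, edgeR adjusted p = 0.689), and 3 of the 10 had an unadjusted p under 0.05, as did 764 of all genes tested. For F5 and Selp both values of the libraries labelled siFXR1-LNA lay below both of siCont. F13a1 differed by 0.42 (SE 0.84) and F10 by 0.60 (SE 0.37, edgeR adjusted p = 0.824). Leaving out 1 library at a time moved F13a1 here between -0.41 and 2.54, with its sign turned without siCont 1 (-0.41) and without library 2 labelled siFXR1-LNA (-0.28).

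**Figure D4:**
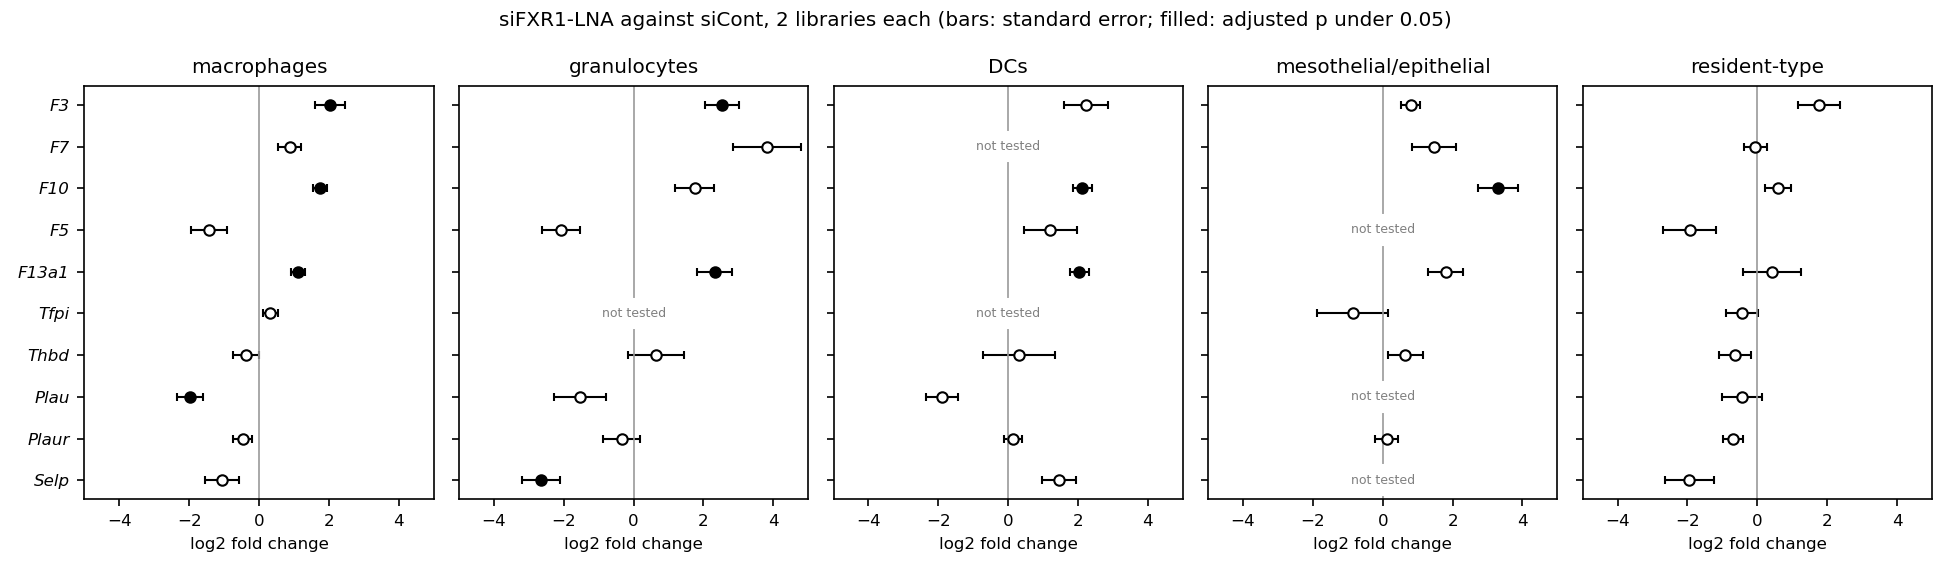
Log2 fold change of each gene in the libraries labelled siFXR1-LNA against siCont (x axis) with its standard error (bars), for 5 cell types, with filled symbols where the edgeR adjusted p was under 0.05. F10 is filled on the right in macrophages (1.75), DCs (2.13) and mesothelial or epithelial cells (3.29), and Plau (-1.96) is filled on the left in macrophages and Selp (-2.65) in granulocytes.

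In granulocytes 3 of 9 genes tested passed, where 3% of 12320 genes did. F3 was higher in the libraries labelled siFXR1-LNA by 2.53 on the log2 scale (SE 0.49, edgeR adjusted p = 0.0256) and F13a1 by 2.32 (SE 0.50, edgeR adjusted p = 0.0381), and Selp was lower, at -2.65 (SE 0.54, edgeR adjusted p = 0.0287). F10 differed by 1.76 (edgeR adjusted p = 0.121), F7 by 3.81 (edgeR adjusted p = 0.0626) and F5 by -2.07 (edgeR adjusted p = 0.0680). With 1 library left out at a time, log2 fold changes ranged from 2.26 to 2.74 for F3, 1.84 to 3.00 for F13a1 and -2.99 to -1.79 for Selp. Which genes passed depended on the library left out, and the number passing over all genes moved too. Without a filter on low counts none passed with edgeR, nor did any of 20057 genes (6 and 2103 at an unadjusted p under 0.05). F13a1 missed with upper-quartile factors (edgeR adjusted p = 0.0672), where 219 of 12320 genes passed. The F3 UMIs per 100 granulocytes, 0.905 and 0.774 against 7.54 and 6.17, stood beside those of B cells at 1.52 and 0.636 against 7.07 and 4.01.

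In DCs 2 of 8 genes tested passed, where 2.51% of 11914 genes did: F10 was higher by 2.13 (SE 0.28, edgeR adjusted p = 0.0257) and F13a1 by 2.04 (SE 0.28, edgeR adjusted p = 0.0271). With 1 library left out at a time, F10 ranged from 1.89 to 2.38 and F13a1 from 1.71 to 2.47. Whether they passed depended on the library left out, and the number passing over all genes moved too. F10 did not pass when the cells with the highest Scrublet doublet scores were left out (edgeR adjusted p = 0.131), where 238 of 11836 genes did. In mesothelial or epithelial cells F10 alone of 7 genes passed, where 7.82% of genes did, by 3.29 (SE 0.58, edgeR adjusted p = 0.00940), from 2.63 and 0 to 23.9 and 14.5 CPM, where the 0 allows up to 2.88. F3 differed there by 0.80 (SE 0.28, edgeR adjusted p = 0.107) and F13a1 by 1.80 (edgeR adjusted p = 0.0551). With 1 library left out at a time, F10 ranged here from 2.83 to 9.41, F13a1 from 1.26 to 4.18 and F3 from 0.45 to 1.05. F10 was also counted in lymphocytes: B cells carried 0.358 and 0.795 F10 UMIs per 100 cells in siCont and 3.08 and 6.47 in the libraries labelled siFXR1-LNA, T cells 0.724 and 0.604 against 2.87 and 7.15, DCs 2.72 and 4.25 against 13.4 and 14.2, and mesothelial or epithelial cells 1.78 and 0 against 14.4 and 11.03. The part of free RNA in the differences of DCs, granulocytes and mesothelial or epithelial cells was not tested.

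None of the genes passed in B cells (9 tested, where 0.104% of genes passed), T cells (9 tested, 0.448%), mast cells and basophils (1 tested, 1.88%) or erythroid cells (9 tested, 0%) with edgeR. At an unadjusted p under 0.05 there were 4 of the 9 in B cells (1765 of 12448 over all genes), 4 in T cells (1567 of 12270), F13a1 in mast cells and basophils (184 of 1973) and 0 in erythroid cells (1248 of 11610). DESeq2 called 3 of these genes in B cells, 2 in T cells and, over all genes, 58 in erythroid cells. F10 differed by 3.11 in B cells (edgeR adjusted p = 0.0864) and by 2.75 in T cells (edgeR adjusted p = 0.0909). F10 ranged from 2.69 to 3.56 in B cells and from 2.24 to 3.09 in T cells when 1 library at a time was left out. The number of genes passing moved in these fits.

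Whether a change was unequal in macrophages and another type was tested by the interaction term of edgeR, each library serving as its own block. For Selp the change in DCs exceeded that in macrophages by 2.55 on the log2 scale (SE 0.34, edgeR adjusted p = 0.000292), for F5 by 2.80 (SE 0.49, edgeR adjusted p = 0.00247) and for F13a1 by 0.95 (SE 0.25, edgeR adjusted p = 0.0276), where 7.94% of genes passed. Selp in DCs was 2.13 and 4.78 in siCont and 9.60 and 9.76 in the libraries labelled siFXR1-LNA, against 10.6 and 27.0 and 9.32 and 6.67 in macrophages. F5 in DCs was 0.709, 2.99, 4.202 and 4.37, against 17.3, 41.3, 12.5 and 6.76 in macrophages. For Plaur the change in T cells exceeded that in macrophages by 2.04 (SE 0.32, edgeR adjusted p = 0.0110), where 2.5% of genes passed. No gene of the 10 passed this test in B cells (3.15%), granulocytes (4.07%), mesothelial or epithelial cells (0.702%), erythroid cells (0.122%) or mast cells and basophils (0.243%), so the larger F10 difference of mesothelial or epithelial cells was not shown to exceed that of macrophages.

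Other genes of the pathway, a list of 44, were read in the same fits. In macrophages 23 were tested, where 19% of all genes passed, and 3 of those described here were higher and 2 lower in the libraries labelled siFXR1-LNA. Serpine2, a protease inhibitor, went from 0.175 and 0.175 to 2.68 and 2.19 CPM (log2 fold change 3.95, SE 0.42, edgeR adjusted p = 0.00863). Procr, the receptor of protein C, went from 2.23 and 1.11 to 7.17 and 7.80 (2.34, SE 0.36, edgeR adjusted p = 0.0170), and Mcfd2, a secretion receptor of F5 and F8, from 46.2 and 39.4 to 53.8 and 56.8 (0.56, SE 0.12, edgeR adjusted p = 0.0338). Pros1, the cofactor of activated protein C, was also lower, with 99.4 and 79.0 against 16.7 and 27.8 (-1.81, SE 0.26, edgeR adjusted p = 0.0146), as was Selplg, the ligand of Selp, with 218 and 213 against 78.0 and 114 (-0.98, SE 0.20, edgeR adjusted p = 0.0334). In the subclusters found in every library no gene passed, these 5 included.

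In DCs S100a10, a plasminogen-binding protein, was lower (-0.83, SE 0.15, edgeR adjusted p = 0.0472, of 20). None passed in B cells, erythroid cells, mast cells, cycling macrophages or resident-type macrophages, with 18, 16, 5, 13 and 19 tested. Other clotting genes known from the liver were at or near 0: Fga, Fgb, Fgg and Kng1 had no UMI in any library, and prothrombin (F2) and plasminogen (Plg) had mean levels of at most 0.144 and 0.0280 CPM in any type.

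Likeness to each gene was measured by Pearson's r of log2(CPM + 10) over 34 sums of a named cell type in a library. Macrophages entered as a whole, so differences among their subclusters are not part of these values. Sums of a library share its depth and its free RNA, so r is a description. F13a1 was most like Arg1 (0.92), Cd93 and Cd302 (both 0.90), F10 like Prdx5 (0.87), Cd14 and Clec4d (both 0.86), and F7 like Fabp7 (0.88), Cyp2ab1 and Gm13986 (both 0.87). F3 was most like Fgfrl1 (0.93), Slc1a4 (0.91) and Fkbp10 (0.90). F5 was most like the platelet genes Ppbp, Treml1 (both 0.90) and Alox12 (0.89), the platelet cluster having the highest F5, while Selp was most like Cds1 (0.86), Nlrx1 (0.82) and F5 itself (0.79). Plau was most like the cell division genes Ncaph (0.88), Spc24 (0.86) and Depdc1b (0.85), and Plaur like Arhgap24 (0.88), Arsg (0.87) and Bst1 (0.86). For the sparse Thbd and Tfpi the highest values were 0.81, with Epha2, and 0.83, with Gm36172.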

How the data were processed

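Ascites cells of 4 libraries (2 siCont, 2 labelled siFXR1-LNA) were measured by droplet 3′ single-cell RNA-seq after red-cell lysis. The authors deposited UMI counts for every gene in every barcode. Their processing notes name Cell Ranger 7.0.0 and mm10. Whether introns were counted is not given in the sources used here. Grouping followed the labels. The members and lists were chosen with earlier results of these data known.

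The limits of the study's methods were applied to cells: 100 to 4800 genes, and mitochondrial UMIs up to 15%. Clusters were made in Seurat 5.3.0 (R 4.3.3) from 2000 variable genes, the 10 genes and the pathway list left out, with 50 components at resolution 0.1, and macrophages again at 0.3. A name required 3 markers of a list, each 2 times higher than on average elsewhere and detected in 10% of cells. Clusters of macrophages that carried B or T cell markers were left out. No doublets were removed, since Scrublet (scanpy 1.11.5, Python 3.11.15) marked 1 cell at its own threshold. Levels are CPM, set per type and library.

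The counts of types with 10 or more cells in every library were summed per library and tested with edgeR 4.0.16 (glmQLFit, TMM, filterByExpr, Benjamini-Hochberg over all genes tested, threshold 0.05), with the library as a block for interactions. DESeq2 1.42.0, other scalings and filters, other clusterings and each library left out were alternatives. Named genes were all 10, and of the list those past the threshold in a type. A withheld item of the list is not reported here. On simulated counts of the 14270 macrophage genes, 19% of genes changed 2-fold and 70% of those changed 4-fold were recovered, with 14 false calls of 103. Libraries of a group differed by more than counting noise, so none was a duplicate. Shares were taken after thinning cells to 1000 UMIs. A count of 0 allows up to 3 UMIs, which covers counting error only. Figures were drawn with matplotlib 3.10.9.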

Additional observations from a re-analysis of the deposited data

Results flagged for a closer look

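The change between groups differed between cell types for 4 results by the interaction test (edgeR, adjusted over all genes tested). Against macrophages, the change in DCs was higher by 2.55 on the log2 scale for Selp, by 2.80 for F5 and by 0.95 for F13a1, and the change in T cells was higher by 2.04 for Plaur. Selp stood in DCs at 2.13 and 4.78 CPM in siCont and at 9.60 and 9.76 under the label siFXR1-LNA, and in macrophages at 10.6 and 27.0 against 9.32 and 6.67. Plaur in T cells stood at 26.3 and 20.8 against 6.17 and 7.60 in siCont, and in macrophages at 68.3 and 75.1 against 84.2 and 141. Resident-type macrophages, which hold most of the macrophage UMIs of F5 and Selp, made up 3.01% and 32.7% of siCont macrophages and 12.6% and 24.5% of those labelled siFXR1-LNA.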

How the results depend on the processing

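The number of the 10 genes past the threshold depended on the fit. DESeq2 gave 3 in B cells, 2 in T cells and 5 in granulocytes. Without a filter on low counts there were 5 in B cells, 5 in DCs, 4 in T cells, 0 in granulocytes, 7 in macrophages, 2 in cycling and 3 in resident-type macrophages and 2 in mesothelial or epithelial cells. Leaving out the cells with the highest Scrublet scores left 1 in DCs, resolution 0.3 gave 2 in cycling macrophages and 3 in mesothelial or epithelial cells, and subclusters found in every library gave 0 in macrophages. The number also moved with 1 library left out at a time in B cells, DCs, T cells, granulocytes, macrophages, cycling macrophages and mesothelial or epithelial cells. In these fits the number passing over all genes moved as well.

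The labels do not say that a replicate number marks a shared animal or day, and the deviations of replicate 1 in the 2 groups correlated at -0.03 (cycling macrophages) to 0.37 (granulocytes). With the replicate block there were 3 of the 10 genes past the threshold in B cells, 4 in T cells, 6 in granulocytes, 2 in cycling, 2 in resident-type macrophages and 2 in mesothelial or epithelial cells.

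Directions turned for F7 in resident-type macrophages at resolution 0.3 (0.16) and for Tfpi in macrophages of the subclusters found in every library (-0.12). Leaving out 1 library at a time, log2 fold changes ranged in resident-type macrophages from -0.056 to 1.04 for F10, -0.41 to 2.54 for F13a1, -0.49 to 0.31 for F7, -1.73 to 0.076 for Plau and -1.02 to 0.44 for Thbd, and in macrophages from -0.82 to 0.24 for Thbd. The cause was not tested.

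Mean shares of cells with a UMI followed depth. Thinned to 1000 UMIs they were 46.6% for F13a1 and 12.8% for F10 in macrophages, 8.36% for Plaur in granulocytes and 3.56% for F3 in mesothelial or epithelial cells. Without thinning they were 68.4%, 43.3%, 15.8% and 18.6%. At 2000 UMIs F10 was at 22.5%, Plaur at 18.1% and F3 at 6.24%, and at 500 UMIs Plaur was at 4.98% and F3 at 1.22%.

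Counts over all genes moved as well. Against 13 in B cells, 55 in T cells, 299 in DCs, 0 in erythroid cells and 4 in resident-type macrophages, DESeq2 called 452, 399, 579, 58 and 58, fits without a filter 1184, 1118, 1662, 96 and 391, and fits with the block 1000, 808, 804, 147 and 316. Granulocytes had 370 genes, 0 without a filter, 219 with upper-quartile factors and 1110 with the block. Cycling macrophages had 174, with 652, 389 and 365 without a filter, with the block and at resolution 0.3, and mesothelial or epithelial cells 1026, with 1945 and 1634 in the first 2 of these and 645 at a 5% mitochondrial limit. Leaving out 1 library gave 449 to 1990 in macrophages (2709 with all). Without the TMM factor the median of all genes was -0.18 in macrophages and 0.24 in granulocytes. Of 224 counts, levels and shares, 176 kept their size or call, and of 753 values of single genes 643 kept direction and side of the threshold. With 2 libraries a group, depth and the spread between pools limit what these tests can see.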
